A study of Mus musculus with 6 samples.

Results

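The genes described here are 38 genes that macrophages and other phagocytic cells of the myeloid lineage express, out of 24661 genes measured by RNA-Seq in the mouse olfactory mucosa. They were chosen by name from a list of 39 names, of which Emr1 is the older symbol of Adgre1, and each of the 38 genes was found in the files of every mouse. The mucosa came from 3 wild-type and 3 RTP1,2DKO mice, taken at postnatal day 21, of the C57BL/6 strain in the sample labels and littermates matched for sex in the methods. RTP1,2DKO mice are homozygous for a deletion of both Rtp1 and Rtp2, made one after the other in the same embryonic stem cells, and the wild-type mice carry neither deletion. RTP1 and RTP2 are chaperones that help odorant receptors reach the surface of olfactory sensory neurons (OSNs). The deletion is present in every cell of the animal, and the tissue was the whole mucosa, so the libraries mix the olfactory epithelium with connective tissue, bone, vessels and blood.

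Macrophages are the resident phagocytes of most tissues, and in the olfactory mucosa they sit in the lamina propria and among the epithelial cells. OSNs die and are replaced throughout life, and macrophages are known to engulf the dying neurons and to release factors that act on the progenitor cells. They recognise dying cells through complement C1q, through receptors that read phosphatidylserine by way of bridging proteins, and through receptors that signal by the adaptors Tyrobp and Fcer1g, and they digest what they take up in lysosomes. The comparison asked whether the RNA of these cells differed in a mucosa whose OSNs lack both chaperones.

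The transcription factor PU.1, the product of Spi1, drives the macrophage programme and binds purine-rich sequences around a GGAA core. RefSeq promoters (GRCm38.p6) were matched for 28 of the 38 genes. The word GAGGAAGT or its reverse complement ACTTCCTC, searched in the 250 bases before and 50 bases after each start, stood in 2 of these 28 promoters (7.14%), those of C1qc and Ctss, and in 997 of 27025 promoters of all genes (3.69%). The shorter word GGAAGT or its reverse complement ACTTCC, which the longer word contains, stood in 13 of the 28 (46.4%) and in 7175 of all promoters (26.5%). A match of these letters is a description and not a binding site, since no binding was measured. The promoters of 4 genes are shown, for a pair of C1q subunits, for the gene with the smallest p-value of the 38, and for the most abundant one. Each runs from 250 bases before the start to 10 bases after it, 5′ to 3′ along the gene, and capitals mark the match. The C1qb promoter lies at chr4:136886191-136886450 and the C1qc promoter at chr4:136892905-136893164, both on the minus strand, the Ctss promoter at chr3:95526536-95526795 on the plus strand, and the Lyz2 promoter at chr10:117282263-117282522 on the minus strand.
C1qb: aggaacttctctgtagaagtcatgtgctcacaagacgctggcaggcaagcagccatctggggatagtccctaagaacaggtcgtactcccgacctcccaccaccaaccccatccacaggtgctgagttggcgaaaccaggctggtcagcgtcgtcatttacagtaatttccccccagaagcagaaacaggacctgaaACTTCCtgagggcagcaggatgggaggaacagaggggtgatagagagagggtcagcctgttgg
C1qc: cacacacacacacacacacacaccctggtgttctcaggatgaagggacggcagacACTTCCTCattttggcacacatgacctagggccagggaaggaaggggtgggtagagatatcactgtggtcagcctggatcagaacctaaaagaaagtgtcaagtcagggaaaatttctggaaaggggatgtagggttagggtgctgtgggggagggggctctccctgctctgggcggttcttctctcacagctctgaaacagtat
Ctss: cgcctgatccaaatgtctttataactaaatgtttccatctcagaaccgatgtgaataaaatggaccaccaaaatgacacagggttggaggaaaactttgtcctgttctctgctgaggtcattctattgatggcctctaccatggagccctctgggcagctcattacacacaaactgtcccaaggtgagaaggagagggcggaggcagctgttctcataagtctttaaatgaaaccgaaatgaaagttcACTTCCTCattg
Lyz2: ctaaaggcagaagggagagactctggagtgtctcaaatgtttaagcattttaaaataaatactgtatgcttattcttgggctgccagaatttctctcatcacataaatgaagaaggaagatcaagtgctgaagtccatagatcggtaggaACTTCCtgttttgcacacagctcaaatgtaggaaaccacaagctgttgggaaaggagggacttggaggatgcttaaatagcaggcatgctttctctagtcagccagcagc
The match lay 53 bases before the start in C1qb, 195 bases in C1qc, 100 bases in Lyz2 and 2 bases in Ctss. The levels of these 4 genes are given with their groups.

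The libraries held between 31125410 and 41636996 estimated counts, and all counts given here were normalized by DESeq size factors between 0.907 and 1.147. Values of single mice stand in the order of their replicate numbers, 1 to 3. Rtp1 lay between 13543 and 25301 normalized counts in the wild-type and between 85.5 and 109 in RTP1,2DKO, and Rtp2 between 7157 and 9511 against 26.2 and 58.0, so the targeted genes followed the labels. Of 10 markers of mature OSNs, 9 fell in RTP1,2DKO by edgeR's quasi-likelihood test, and the summed level of the 10 was 188432 ± 14768 in the wild-type and 91402 ± 3497 in RTP1,2DKO (SD, n = 3 each). Wild-type mouse 1 stood apart from the other 2 wild-type mice in markers of red blood cells and neutrophils. All 9 red blood cell markers and 12 of 13 neutrophil markers had their lowest value there, and the median neutrophil marker lay 1.71 below its mean of the 6 mice on the log2 scale. Of lymphocyte markers with at least 10 counts on average, 4 of 8 for B cells and 2 of 7 for T cells were lowest in wild-type mouse 1. Of all genes at that level, 22.4% were. The median marker lay at -0.60 for B cells and -0.11 for T cells in this mouse, on the same scale. Fold changes that move most without this mouse are given with and without it.

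None of the 38 genes was called higher or lower in RTP1,2DKO. Across all genes, edgeR's quasi-likelihood test with Benjamini-Hochberg adjustment at 0.05 called 799 of 22152 genes (3.61%), with 102 higher (0.46%, or 196 genes with the mice paired by number) and 697 lower (3.15%). Of the 38 genes, 3 had an unadjusted p under 0.05, namely Ctss, Mpeg1 and Ccl6 (7.89%, against 11.8% of all genes tested), and the smallest adjusted p of edgeR's test was 0.327, for Ctss. DESeq2's Wald test and edgeR's exact test also called none of the 38, and gave 3 and 1 of them with an unadjusted p under 0.05. All RTP1,2DKO values exceeded all wild-type values for 4 of the 38 genes, Spi1, Mpeg1, Axl and Ctss, as they did for 7.17% of all genes, and no gene of the 38 had all RTP1,2DKO values below the wild-type, against 9.24% of all genes.

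The fold changes were small. Over the 38 genes the log2 fold change had a median of 0.14, against 0.016 over all genes tested, and 33 of the 38 (86.8%) were above 0, compared with 52.6% of all genes, whereas on log2(TPM + 0.1) only 14 of the 38 were, with the median of all genes at -0.19. Relative to the median of all genes, the median member stood 0.12 higher on normalized counts and 0.14 higher on TPM. The lowest log2 fold change was -0.46 (Aif1) and the highest 0.67 (Trem2). By role, the median ran from 0.094 for the adhesion and scavenger receptors and the oxidase subunits to 0.32 for the chemokine genes. The 95% interval of the fold change excluded a 2-fold difference in either direction for 31 of the 38 genes (81.6%, against 61.8% of all genes tested), and excluded a 1.5-fold difference for 14 (36.8%, against 41.7%). The 7 genes whose interval reached 2-fold, Spi1, Aif1, Fcgr1, Trem2, Ccl2, Ccl3 and Ccl4, all had under 60 normalized counts on average in the wild-type. In whole tissue, fewer cells of a type and less RNA per cell cannot be told apart.

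**Figure D1:**
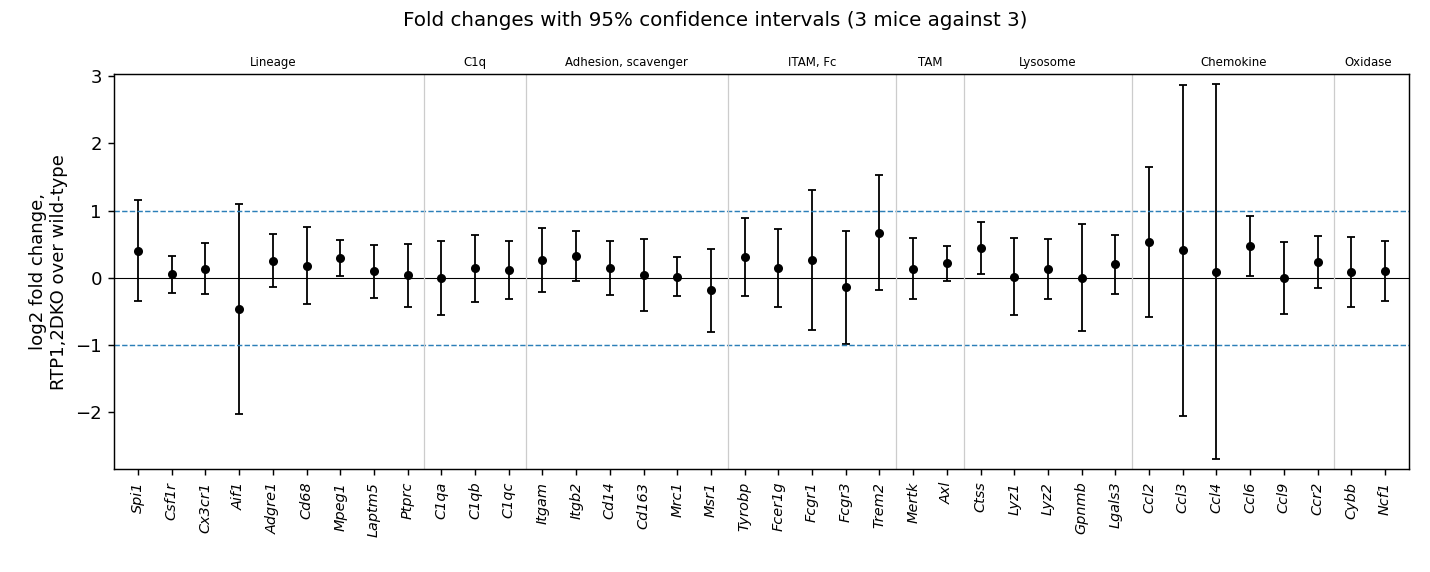
The log2 fold change of each of the 38 genes (RTP1,2DKO over wild-type, vertical axis) with its 95% interval from edgeR's quasi-likelihood test, grouped by role along the horizontal axis. Most points lie slightly above 0, 33 of 38 in all, and the intervals of Ctss, Mpeg1 and Ccl6 alone leave out 0.

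The small difference rested largely on wild-type mouse 1. Expressed as log2 deviations from the mean of the 6 mice over the 36 genes with at least 10 counts on average, the median gene lay at -0.37, 0.078 and 0.0052 in the wild-type and at 0.14, -0.0055 and 0.20 in RTP1,2DKO. Wild-type mice 2 and 3 lay within the range of the RTP1,2DKO mice, and mouse 1 lay below all others. It held the lowest value of 21 of the 36 genes, compared with 22.4% of all genes at that level. Without it, 23 of the 38 log2 fold changes were above 0, their median was 0.037 against 0.025 for all genes, and none of the 38 had an unadjusted p under 0.05. That last count was not particular to wild-type mouse 1. Without RTP1,2DKO mouse 3 it was also 0, with 27 of the 38 above 0 and a median of 0.092. With any other single mouse left out it was 1 to 6. Among mice with the same number, 31 of the 36 genes were higher in RTP1,2DKO for pair 1 and 28 for pair 3, but only 14 for pair 2. The part of the low neutrophil and red blood cell markers of wild-type mouse 1 in this difference was not tested.

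**Figure D2:**
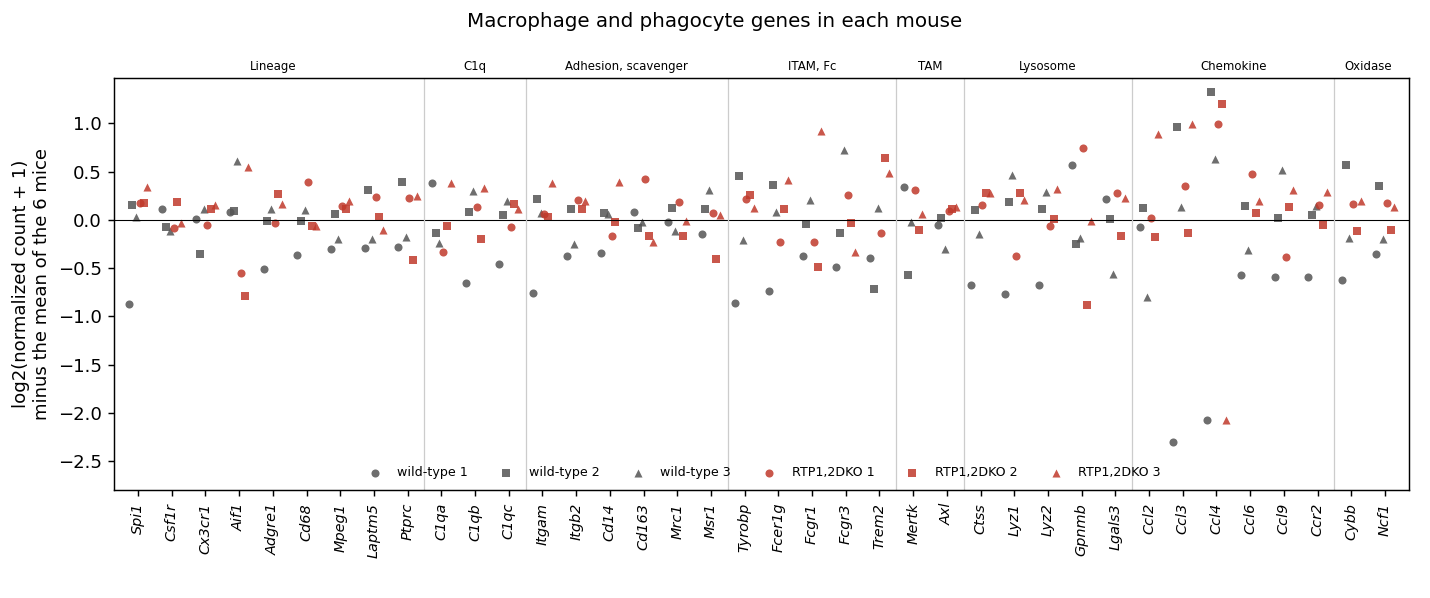
The level of each of the 38 genes in each mouse, as log2(normalized count + 1) minus the mean of the 6 mice (vertical axis), with wild-type in grey and RTP1,2DKO in red. The grey circles of wild-type mouse 1 are the lowest points for most genes, while the other 5 mice are mixed.

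The level of the 38 genes summed within a mouse behaved likewise. The sum was 19581, 27867 and 27857 normalized counts in the wild-type and 26624, 26550 and 30618 in RTP1,2DKO. Only wild-type mouse 1 lay outside the range of the other mice on the low side, at 0.703 of the mean of the other two wild-type mice. Lyz2 alone made up 41.3% of these counts, and without it the sum was 14655 ± 1723 in the wild-type and 16492 ± 754 in RTP1,2DKO (SD, n = 3 each).

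The genes that define the lineage were detected in every mouse, and none was called in any setting. Csf1r, the receptor for the growth factors that keep macrophages alive, had 1084, 955 and 923 normalized counts in the wild-type and 947, 1141 and 978 in RTP1,2DKO. The groups overlapped, and its fold change was bounded between 0.852 and 1.26 at 95%, one of the tightest intervals of the set. Adgre1, which encodes the surface marker F4/80 (chromosome 17 from 57358691 to 57483527, GRCm38), had 258, 364 and 396 counts in the wild-type and 359, 442 and 413 in RTP1,2DKO. Its log2 fold change was 0.25 ± 0.18 (SE), with the groups overlapping, and 0.092 without wild-type mouse 1. Cx3cr1, the fractalkine receptor of resident macrophages, had 307, 239 and 330 counts in the wild-type and 294, 330 and 339 in RTP1,2DKO, a difference smaller than the spread of the wild-type mice.

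Mpeg1, which encodes the pore-forming protein perforin-2 of phagocytes (chromosome 19 from 12460779 to 12465283), had 1358, 1746 and 1460 counts in the wild-type and 1849, 1818 and 1919 in RTP1,2DKO. The groups did not overlap, for which an exact permutation test gives p = 0.1, the smallest it can give for 3 mice a group. The log2 fold change was 0.29 ± 0.12 (SE) with an adjusted p of 0.363 in edgeR's test, and without wild-type mouse 1 it was 0.22 with an adjusted p of 0.619 (0.143 to 0.959 over all alternatives). Spi1 itself (chromosome 2 from 91082390 to 91115756) had 29.0, 60.1 and 55.1 counts in the wild-type and 61.1, 61.0 and 68.6 in RTP1,2DKO. Its groups did not overlap either, but wild-type mice 2 and 3 lay close to the RTP1,2DKO mice and only mouse 1 was far below them. The Spi1 log2 fold change was 0.40 in all mice and 0.14 without wild-type mouse 1.

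The rest of the lineage genes overlapped between the groups. Ptprc, which encodes the pan-leukocyte phosphatase CD45, ranged from 388 to 622 counts in the wild-type and from 354 to 560 in RTP1,2DKO. Laptm5, a lysosomal membrane protein of blood cells, ranged from 384 to 581 against 437 to 554, and Cd68, a lysosomal glycoprotein, from 71.4 to 99.2 against 88.1 to 121. The log2 fold change of Cd68 was 0.18 and, without wild-type mouse 1, 0.055. Aif1, the calcium-binding protein IBA1 that marks microglia and macrophages, had at most 15.4 counts in any mouse, so its log2 fold change of -0.46 had a 95% interval from -2.03 to 1.10.

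The 3 genes of C1q, the complement protein that coats dying cells, lie next to each other on chromosome 4. C1qa (136895917 to 136898803) had 205, 143 and 132 counts in the wild-type and 124, 150 and 205 in RTP1,2DKO. C1qb (136880129 to 136886187) had 215, 358 and 418 against 371, 295 and 425, and C1qc (136889804 to 136893065) had 193, 277 and 307 against 253, 299 and 289. Wild-type mouse 1 was the lowest of the 6 for C1qb and C1qc but tied for the highest for C1qa, so the 3 subunits of a single protein complex did not rank the mice alike. Their log2 fold changes were -0.003, 0.14 and 0.12, and the 95% interval of C1qb, the highest of them, ran from -0.36 to 0.64. Without wild-type mouse 1 they were 0.21, -0.093 and -0.055.

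Receptors for adhesion and scavenging also overlapped between the groups. Itgb2, the common beta chain of the leukocyte integrins, came nearest to separating, with 233, 327 and 254 counts in the wild-type and 349, 326 and 346 in RTP1,2DKO. Its lowest RTP1,2DKO mouse lay just below the highest wild-type mouse, and the log2 fold change was 0.33 ± 0.17 (SE) with an adjusted p of 0.532 in edgeR's test. Its partner Itgam, the CD11b chain, had 300, 591 and 536 against 530, 519 and 663, where wild-type mice 2 and 3 lay inside the RTP1,2DKO range. Its log2 fold change of 0.26 was 0.019 without wild-type mouse 1, and that of Itgb2 was then 0.23. Of the words of 31 bases in the annotated Itgam transcripts, 31.9% are in no other gene of GENCODE M21, and most of the others are shared with the gene model Gm49368, which the files do not list. Mrc1, the mannose receptor CD206 of tissue macrophages, had a fold change between 0.826 and 1.23 at 95%, and the lipopolysaccharide co-receptor Cd14, the haemoglobin scavenger receptor Cd163 and the scavenger receptor Msr1 had log2 fold changes of 0.14, 0.044 and -0.19 (0.018, 0.091 and -0.30 without wild-type mouse 1).

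Trem2, a lipid receptor that phagocytes use on dying cells (chromosome 17 from 48346401 to 48354147), had the highest log2 fold change of the 38 genes. It had 29.0, 22.9 and 41.9 counts in the wild-type and 34.8, 60.2 and 53.9 in RTP1,2DKO. One RTP1,2DKO mouse lay within the wild-type range, and the fold of 1.59 had a 95% interval from 0.879 to 2.89 and an adjusted p of 0.595 in edgeR's test. On TPM it stood at 1.78 ± 0.17 in the wild-type and 2.44 ± 0.41 in RTP1,2DKO (SD, n = 3 each). The adaptor through which Trem2 signals, Tyrobp (DAP12), had 125, 313 and 197 against 265, 273 and 248 counts, so that a single wild-type mouse lay above all RTP1,2DKO mice. Fcer1g, the gamma chain that carries Fc receptor signals, ranged from 126 to 273 in the wild-type and from 180 to 281 in RTP1,2DKO. The log2 fold changes of Tyrobp and Fcer1g were 0.30 and 0.15 in all mice and 0.035 and -0.11 without wild-type mouse 1. The antibody receptors Fcgr1 and Fcgr3 had log2 fold changes of 0.26 and -0.14 with standard errors of 0.48 and 0.39. That of Fcgr3 was -0.38 without wild-type mouse 1.

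Axl and Mertk are receptor tyrosine kinases that bind phosphatidylserine on dying cells through the bridging proteins Gas6 and Pros1. Axl (chromosome 7 from 25757273 to 25788705) had 2199, 2303 and 1847 counts in the wild-type and 2418, 2466 and 2489 in RTP1,2DKO. The groups did not overlap (exact permutation p = 0.1), and unlike most of the set the lowest mouse was wild-type mouse 3. The log2 fold change was 0.22 ± 0.12 (SE), with an adjusted p of 0.556 in edgeR's test. Mertk varied more, with 641, 341 and 501 counts against 628, 471 and 528, and the RTP1,2DKO mice all lay inside the wild-type range. The log2 fold change of Mertk was 0.13 in all mice and rose to 0.37 without wild-type mouse 1. Axl is also expressed by stromal and vascular cells, so in whole mucosa its counts are not those of macrophages alone. The part of cells other than macrophages in the counts of the other genes, Lyz2 among them, was not tested.

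Ctss, which encodes the lysosomal protease cathepsin S (chromosome 3 from 95526786 to 95556403), had the smallest p-value of the 38 genes. It had 375, 642 and 542 counts in the wild-type and 668, 727 and 725 in RTP1,2DKO. The groups did not overlap, though wild-type mouse 2 lay close to the lowest RTP1,2DKO mouse. The fold was 1.36 with a 95% interval from 1.04 to 1.78 and an adjusted p of 0.327 in edgeR's test. Without wild-type mouse 1 the log2 fold change was 0.26 with an adjusted p of 0.612 (0.108 to 0.909 over all alternatives), compared with 0.44 in all 6 mice.

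Lyz2, which encodes the M-type lysozyme (chromosome 10 from 117277331 to 117282321), had 6705, 11550 and 13085 counts in the wild-type and 10258, 10740 and 13317 in RTP1,2DKO. Only wild-type mouse 1 lay outside the RTP1,2DKO range, and the log2 fold change was 0.13 with a 95% interval from -0.31 to 0.58, and -0.11 without wild-type mouse 1. Lyz1, the P-type lysozyme, had a log2 fold change of 0.019, and -0.26 without wild-type mouse 1. Since 65.8% of the Lyz1 words of 31 bases and 67.2% of those of Lyz2 are in no other gene, some reads of either could have been assigned to the other. Gpnmb, a glycoprotein of lipid-laden macrophages, ranged from 109 to 191 counts in the wild-type and from 69.8 to 217 in RTP1,2DKO, with a log2 fold change of 0.0004 ± 0.37 (SE). Lgals3, the galectin that binds damaged lysosomes, ranged from 287 to 495 against 377 to 515. Its log2 fold change was 0.20 in all mice and rose to 0.37 without wild-type mouse 1.

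Among the chemokines, Ccl6 (chromosome 11 from 83587882 to 83593087) was the third gene with an unadjusted p under 0.05. It had 175, 286 and 208 counts in the wild-type and 360, 274 and 298 in RTP1,2DKO. Wild-type mouse 2 lay above RTP1,2DKO mouse 2, so the groups overlapped. The fold was 1.39 with a 95% interval from 1.02 to 1.90 and an adjusted p of 0.385 in edgeR's test, and without wild-type mouse 1 the log2 fold change was 0.33 with an adjusted p of 0.664 (0.115 to 0.909 over all alternatives), compared with 0.48 in all mice. Ccl9, the neighbouring chemokine of myeloid cells, had 396, 606 and 851 counts against 455, 653 and 738. Its log2 fold change was -0.004, and -0.24 without wild-type mouse 1.

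The monocyte attractant Ccl2 and the inflammatory chemokines Ccl3 and Ccl4 were near the limit of detection. Ccl2 had 12.1 to 23.9 counts in the wild-type and 19.2 to 41.2 in RTP1,2DKO, and Ccl3 and Ccl4 had at most 9.5 counts in any mouse with none of either in wild-type mouse 1 and no Ccl4 in RTP1,2DKO mouse 3. The log2 fold change of Ccl2 was 0.53 with a 95% interval from -0.58 to 1.65, and 0.12 without RTP1,2DKO mouse 3, its highest mouse. The Ccl2 receptor Ccr2, which marks monocytes that enter tissue, was well measured, with 580, 908 and 966 counts in the wild-type and 976, 843 and 1068 in RTP1,2DKO. Wild-type mice 2 and 3 lay inside the RTP1,2DKO range and its log2 fold change was 0.23 ± 0.18 (SE), and 0.039 without wild-type mouse 1.

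Cybb and Ncf1 encode the gp91 and p47 subunits of the phagocyte NADPH oxidase, which makes superoxide. Cybb had 415, 947 and 559 counts in the wild-type and 715, 591 and 729 in RTP1,2DKO. The wild-type mice were spread on both sides of the RTP1,2DKO mice, and Ncf1 had the same order of wild-type mice, with 195, 316 and 216 counts against 281, 230 and 271. Their log2 fold changes were 0.083 and 0.11, and -0.15 and -0.029 without wild-type mouse 1.

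Levels were compared between genes on TPM, which is per transcript length. Lyz2 was by far the most abundant, at 649 ± 195 TPM in the wild-type (SD, n = 3), followed by Tyrobp at 63.9 ± 37.7 and Fcer1g at 41.6 ± 19.1. Lyz1, Ctss and C1qb followed, at 24.8, 20.7 and 20.3 TPM, and the lowest level was 0.422 TPM, for Fcgr1. In the order of the 38 levels, only Lyz2 and Tyrobp were neighbours whose wild-type values did not overlap, and the other 36 of 37 neighbouring pairs overlapped. Axl, with more counts than every gene but Lyz2 and a transcript of 4793 bases, stood between C1qc and Mpeg1 in this order.

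**Figure D3:**
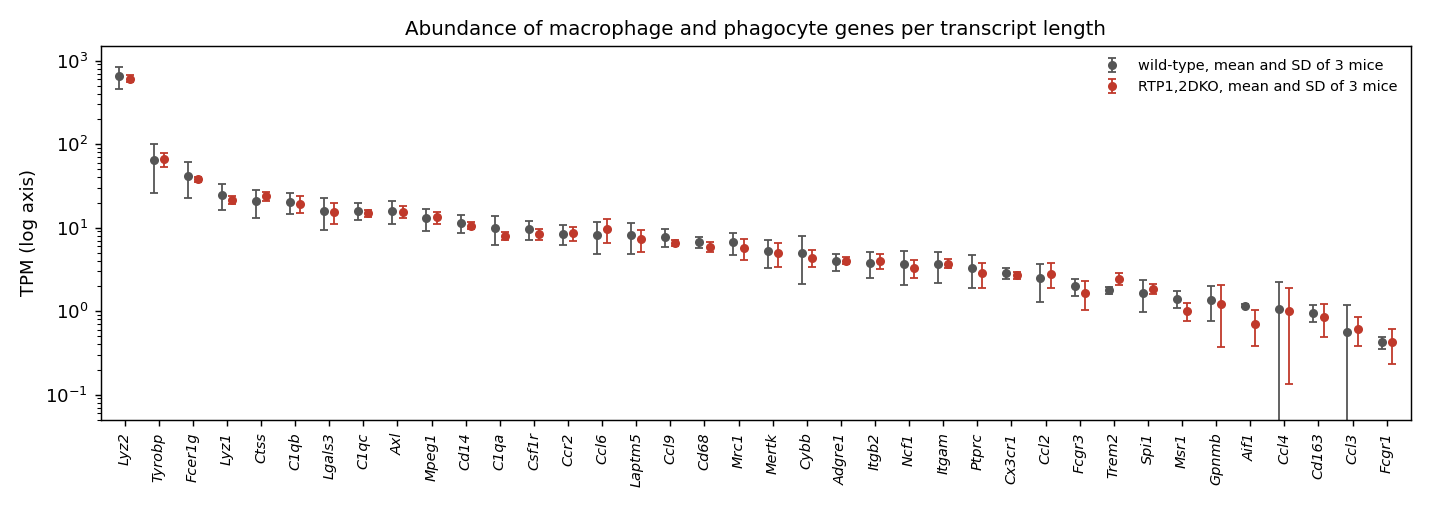
The TPM of the 38 genes (log axis) in wild-type (grey) and RTP1,2DKO (red) mice, ordered by the wild-type mean, with the mean and SD of 3 mice each. Error bars that would fall below the axis are drawn only as far as the axis reaches. Lyz2 stands alone at the top, and the means of the 2 groups lie close together for most genes.

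For 10 of the 38 genes the files held more than one transcript, and for several of them the split between transcripts differed widely between mice, while Trem2 and Ncf1 were assigned almost wholly to a single transcript in every mouse. The first Ptprc transcript took 87.3%, 30.96% and 85.3% of the gene's counts in the wild-type and 48.4%, 8.63% and 37.9% in RTP1,2DKO, with the groups overlapping (exact permutation p = 0.3). The share of the first Axl transcript was 75.5% ± 7.11 in the wild-type and 76.5% in RTP1,2DKO. The shares of Cd163 ran from 0% to 100% within both groups, for a pair of transcripts of 4409 and 4492 bases. Only sums over transcripts were therefore compared. For 34 of the 38 genes at least 96.3% of their words of 31 bases are in no other gene.

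A longer list held other phagocyte genes. Of its 80 measured genes, 1 was called higher and none lower, and 61 had a log2 fold change above 0. Over all genes tested, 0.46% were called higher, 3.15% lower, and 52.6% were above 0. The median of the list was 0.15, and without wild-type mouse 1 it was 0.052. The gene called was Cebpa, a transcription factor of the myeloid lineage that other tissues also express (chromosome 7 from 35119293 to 35121928). It had 508, 602 and 616 counts in the wild-type and 965, 821 and 851 in RTP1,2DKO, with a wide gap between the groups. Its log2 fold change was 0.61 ± 0.14 (SE) and its adjusted p in edgeR's test was 0.026, but without wild-type mouse 1 the adjusted p was 0.0758 and without any one of the RTP1,2DKO mice between 0.0523 and 0.117. Over all alternatives its adjusted p ran from 0.00296 with DESeq2's Wald test to 0.909 with limma on log2(TPM + 0.1). Fcgr4, an activating antibody receptor singled out here after its values were seen, had 10.3, 19.1 and 27.6 against 30.6, 43.6 and 63.7 counts, with a log2 fold change of 1.27 and an adjusted p of 0.259 in edgeR's test. The genes of the list with the most counts, the lysosomal genes Ctsb, Lamp1 and Ctsd, had log2 fold changes of 0.15, -0.22 and 0.093. On TPM the most abundant were Cst3, a secreted protease inhibitor, and Cd63, a lysosomal tetraspanin, at 286 ± 84.9 and 214 ± 59.3 TPM in the wild-type (SD, n = 3 each), with log2 fold changes of 0.34 and 0.30 and adjusted p of 0.217 and 0.375 in edgeR's test. These 2 genes, Fcgr4, Cebpa and the lysosomal protease gene Lgmn, at a log2 fold change of -0.27, made up the 5 of the list with an unadjusted p under 0.05. Of all genes tested, 11.8% had such a p. Fcgr2b, the inhibitory antibody receptor, had the lowest log2 fold change of the list at -0.40.

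Genes for the signals that act on macrophages were not called either. Of 28 ligands, bridging proteins and complement components, none was called by edgeR's quasi-likelihood test or DESeq2. Of the 28, 15 had a log2 fold change above 0 (52.6% of all genes) and 2 an unadjusted p under 0.05 (11.8% of all genes). Their median was 0.039. Among those with the most counts, Cxcl12 and Serping1 had log2 fold changes of 0.20 and 0.11. For the receptors described above, the Csf1r ligands Csf1 and Il34 had 508 ± 102 against 515 ± 63.7 and 71.2 ± 13.1 against 59.5 ± 6.15 counts (SD, n = 3 each). The fractalkine gene Cx3cl1 had 585 ± 65.3 against 585 ± 63.2, and the bridging proteins Gas6 and Pros1 had log2 fold changes of 0.084 and 0.083. The genes with an unadjusted p under 0.05 were Mfge8, which links phosphatidylserine to integrins, at -0.31 and Il1b, the interleukin 1 beta gene, at 0.69, with adjusted p of 0.414 and 0.399 in edgeR's test.

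Other cell types that share genes with macrophages were measured beside them. Of 13 neutrophil markers none was called by edgeR or DESeq2 in all 6 mice and none had an unadjusted p under 0.05, and the granule protein gene Ngp had 186, 2039 and 925 counts in the wild-type and 1449, 765 and 1101 in RTP1,2DKO. The sum over the 13 genes ranged from 37535 to 56048 in the wild-type and from 38076 to 53041 in RTP1,2DKO. Most of that sum came from Ltf and Mmp9, at 30032 ± 9812 and 9973 ± 924 counts in the wild-type (SD, n = 3 each). Elane and Ly6g had 108 ± 97.9 and 41.4 ± 36.6 there. Ltf is the marker that was not lowest in wild-type mouse 1, so the sum does not show the low values of the others. Whether Ltf and Mmp9 came from neutrophils was not tested, so the sum is not a measure of neutrophils. Itgam, Itgb2, Cybb, Ncf1, Fcer1g and Lyz2 are expressed by neutrophils as well, and the part of neutrophils in their values was not tested. Markers of osteoclasts, the bone-resorbing relatives of macrophages, were also detected, where Ctsk had 10147 ± 1609 and 12178 ± 513 counts and Acp5 4221 ± 269 and 4615 ± 265 (SD, n = 3 each), and none of 8 osteoclast markers was called by edgeR's test. The 2 with an unadjusted p under 0.05 went in opposite directions, Nfatc1 with 2050 ± 182 and 1705 ± 56.4 counts and Atp6v0d2 with 755 ± 29.0 and 921 ± 30.1 (SD, n = 3 each).

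The red blood cell markers had a higher median difference than the phagocyte genes. All 9 had a log2 fold change above 0, with a median of 0.85. As a log2 deviation from the mean of the 6 mice, the median marker lay at -0.92, -0.031 and -0.25 in the wild-type. In RTP1,2DKO it lay at 0.95, 0.42 and -0.14, so wild-type mouse 1 and RTP1,2DKO mouse 1 were the extremes. Of them 1, the beta globin gene Hbb-bt, was called at an adjusted p of 0.0485 in edgeR's quasi-likelihood test. It missed the threshold in the same test with the mice paired by number (adjusted p of 0.0506) and with low counts filtered out (0.0815). By edgeR's exact test and by DESeq2, 2 of the 9 were called. Hbb-bt had 1753, 2630.5 and 2428 counts in the wild-type and 5720, 3983 and 2827 in RTP1,2DKO. With each mouse left out in turn, between 0 and 6 of the 9 were called, 0 without wild-type mouse 1 and 6 without RTP1,2DKO mouse 3. Among 9 T cell, 8 B cell, 8 dendritic cell, 7 mast cell, 7 fibroblast and 7 endothelial markers edgeR's test called none. Only 1 of them, Kit of the mast cell list, had an unadjusted p under 0.05. Kit had 1587 ± 78.3 and 1954 ± 146 counts (SD, n = 3 each), against 45.7 and 39.6 for Cpa3 and 20.9 and 29.3 for Mcpt4 of that list. Whether the Kit counts came from mast cells was not tested. By comparison, the 10 mature OSN markers had a median log2 fold change of -1.07, and 2 of 6 immature OSN markers were called higher. That count was 1 to 3 with each mouse left out, 1 with low counts filtered out, and 4 with the mice paired by number or with DESeq2.

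**Figure D4:**
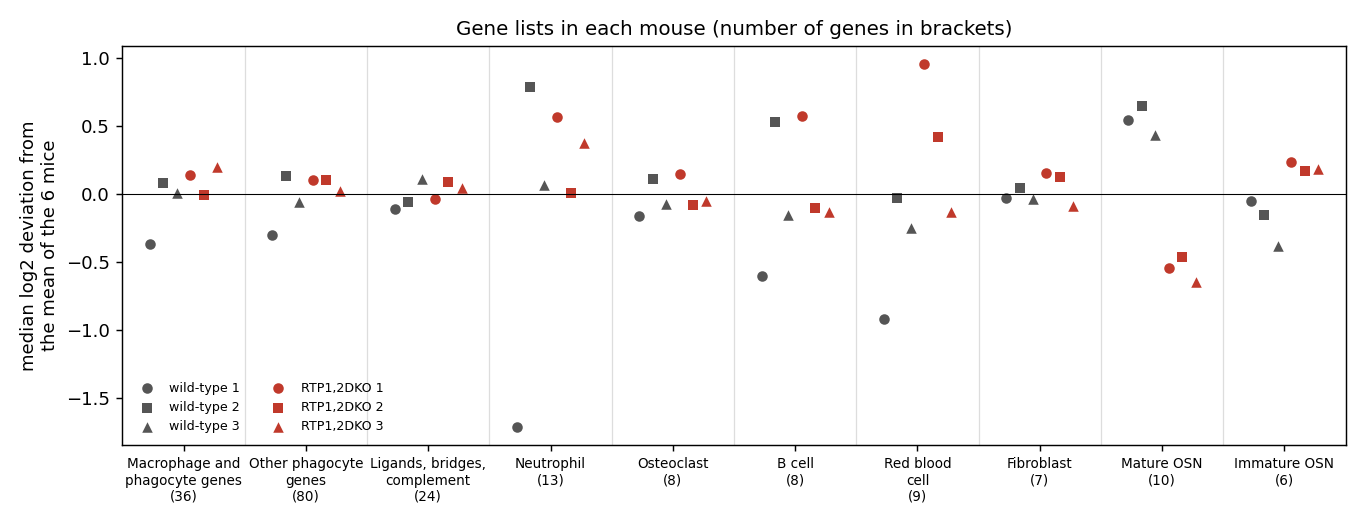
The median log2 deviation from the mean of the 6 mice (vertical axis) of the 36 macrophage and phagocyte genes with at least 10 counts on average and of other gene lists, for each mouse. Mature OSN markers separate the wild-type mice (0.43 to 0.65) from the RTP1,2DKO mice (-0.65 to -0.46). In the phagocyte and neutrophil lists wild-type mouse 1 lies below the other 5 mice. It is also the lowest mouse in the lists of ligands (-0.11), osteoclasts (-0.16), B cells (-0.60) and red blood cells (-0.92).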

How the data were processed

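Whole olfactory mucosa was measured by RNA-Seq in 3 mice of each genotype. The authors assigned stranded reads to mouse transcripts from UCSC with extended OR annotations using kallisto, whose version is not given in the sources used here. The submitters' processing notes name the build mm10. Per transcript they deposited estimated counts, which need not be whole, and TPM values, whose sum is equal in all mice. Length columns were read only for transcript lengths.

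Estimated counts were summed to genes and rounded. Genes reaching 1 count in any mouse (22152) were tested with edgeR 4.0.16 (quasi-likelihood test, R 4.3.3), using DESeq median-of-ratios size factors and Benjamini-Hochberg adjustment at 0.05. Standard errors (SE) were not taken from the fit directly. Each is the absolute log2 fold change divided by the square root of the quasi-likelihood F. Intervals are 95% t intervals of the fitted log2 fold change built from these standard errors. Deviations used log2(normalized count + 1). Single values were compared by two-sided exact permutation tests, for which 0.1 is the smallest p. Gene positions came from GENCODE M21 (GRCm38, the same build as mm10), and promoters from RefSeq (GRCm38.p6). Scripts were tested on simulated data.

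The reported test did not pair the mice. Replicate numbers were taken to pair them only in the replicate block and in the differences between same-numbered mice. The methods describe sex-matched littermates, and the deviations from group means of same-numbered mice correlated at 0.139, 0.179 and 0.103 over 18133 genes. Between mice of different numbers the correlations ran from -0.219 to 0.093. The highest of these, for wild-type mouse 1 and RTP1,2DKO mouse 3, was close to that of pair 3. Xist was high in replicate 2 of both groups, so a shared sex and a shared litter cannot be told apart. The p-values measure the spread between individual mice.

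Alternatives comprised TMM normalization, filterByExpr's removal of low counts, edgeR's exact test, DESeq2 1.42.0, the replicate number as a block, limma 3.58.1 on log2(TPM + 0.1), each mouse left out, and the summed level without Lyz2. The members and all lists were chosen with earlier results of these data known. Every member is accounted for; of each other list, genes past the threshold or otherwise the 3 with the most counts are named, and others were named after their values were seen. One gene this rule takes is not reported here. No set test was made.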

Additional observations from a re-analysis of the deposited data

How the results depend on the processing

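No member was called in any of the 13 fits. The number of all genes called was 799 in the reported fit, 234 with limma on log2(TPM + 0.1), and 598 to 777 with each mouse left out. When the replicate block paired the mice, 1012 genes were called, of which 196 were higher instead of 102, and the call of no member changed. The smallest adjusted p of a member ranged from 0.108, without wild-type replicate 2, to 0.909, with limma on TPM. DESeq2's Wald test called 217 genes higher and limma 11. The median log2 fold change of the members ranged from 0.037, without wild-type replicate 1, to 0.27, without wild-type replicate 2, and was -0.056 with limma on TPM, where the median of all genes was -0.19.

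The sign of a small fold change depended on the setting. Under the block Gpnmb was at -0.081 and Ccl9 at 0.032. With limma on log2(TPM + 0.1) the log2 fold changes that turned negative were those of Csf1r (-0.18), Cx3cr1 (-0.077), Cd68 (-0.18), Laptm5 (-0.11), Ptprc (-0.19), C1qb (-0.051), C1qc (-0.089), Cd14 (-0.091), Cd163 (-0.18), Mrc1 (-0.21), Fcer1g (-0.033), Fcgr1 (-0.056), Mertk (-0.056), Axl (-0.0055), Lyz1 (-0.15), Lyz2 (-0.050), Gpnmb (-0.29), Cybb (-0.065) and Ncf1 (-0.094). Leaving out single mice changed the sign for C1qa (-0.22 to 0.21), C1qb (-0.093 to 0.34), C1qc (-0.055 to 0.25), Ccl3 (-0.16 to 1.38), Ccl4 (-0.48 to 0.96), Ccl9 (-0.24 to 0.30), Cd14 (-0.040 to 0.26), Cd163 (-0.19 to 0.16), Csf1r (-0.037 to 0.12), Cybb (-0.15 to 0.48), Fcer1g (-0.11 to 0.40), Fcgr1 (-0.31 to 0.53), Fcgr3 (-0.38 to 0.29), Gpnmb (-0.48 to 0.32), Laptm5 (-0.017 to 0.30), Lyz1 (-0.26 to 0.28), Lyz2 (-0.11 to 0.32), Mertk (-0.076 to 0.37), Mrc1 (-0.082 to 0.093), Ncf1 (-0.029 to 0.35) and Ptprc (-0.091 to 0.28), given as log2 fold changes. The cause was not tested. Ccl3 and Ccl4 did not pass the filter on low counts, and with 3 mice a group the intervals of the other low genes leave 2-fold differences undetected.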
